A study of Mus musculus with 63 samples.

Results

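The 39 protein-coding Hox genes of the mouse were followed across every count table of the series, out of 54752 genes listed. They were taken as all rows annotated as protein coding whose symbol is Hoxa, Hoxb, Hoxc or Hoxd and a number. The tables hold 40 such rows because Hoxd4 appears under 2 identifiers, and those counts were summed. On mm10, cluster A holds 11 genes on chromosome 6 between 52155590 and 52260880 on the minus strand, and cluster B holds 10 genes on chromosome 11 between 96194316 and 96368256. Cluster C holds 9 genes on chromosome 15 between 102921103 and 103036852, and cluster D holds 9 genes on chromosome 2 between 74668310 and 74765142, the last 3 clusters all on the plus strand.

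Hox genes encode homeodomain transcription factors that record position along the head-to-tail axis of the embryo. Within a cluster the genes lie in the order of their paralog numbers, and genes with low numbers are active further toward the head than genes with high numbers, an arrangement called collinearity. In the gut they are best known from the mesenchyme, the supporting tissue around the epithelium, while the epithelium keeps a regional pattern of its own, and intestinal organoids retain much of the regional identity of the segment they were grown from.

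The RNA came from small intestinal organoids and from intestinal epithelial cells (IECs) of mice, all labelled C57BL/6. Cdk8 and Cdk19 encode the paired kinases of the Mediator complex. VillinCreERT2 drives a tamoxifen-dependent Cre in intestinal epithelium, Cdk8 fl/fl is the allele that Cre removes, Cdk19 ko/ko is a constitutive null, and D173A is a kinase-dead Cdk19 allele. Organoids received 100 nM 4-hydroxytamoxifen (4-OHT) or ethanol vehicle (EtOH) for 24 hours. The first set held 5 lines collected 7 days after 4-OHT, with 3 libraries each: VillinCreERT2 (line 1255), C57BL/6 (line 3983), VillinCreERT2; Cdk8 fl/fl (line 1134, hereafter the CDK8 KO line), Cdk8 fl/fl; Cdk19 ko/ko without Cre (line 407, hereafter the Cdk19 KO line), and VillinCreERT2; Cdk8 fl/fl; Cdk19 ko/ko (line 1003). A time course used line 1002, another line of the genotype of line 1003, at days 3, 5, 7 and 10 in both arms, and the same line was grown in Wnt3-conditioned medium (Wnt3-CM) to day 10. The D173A line carried VillinCreERT2; Cdk8 fl/fl; Cdk19 ko/D173A and was collected at day 7 in both arms. The IECs were collected 14 days after the last tamoxifen dose (80 mg/kg) from VillinCreERT2 and VillinCreERT2; Cdk8 fl/fl; Cdk19 ko/ko mice, 3 libraries each.

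Each organoid genotype was thus 1 line, apart from the double-null genotype with lines 1002 and 1003. The spread between replicates is the spread within a line, and line, genotype and, across tables, sequencing set cannot be told apart. Nothing in the labels says that replicate organoid libraries came from separate mice, so that p-values measure the spread between these libraries only. For the D173A line the columns carry only a line number and a letter for the arm. They were assigned to the D173A labels because no other label remained.

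Promoter sequence was drawn from RefSeq (GRCm38.p6), 250 bases before to 50 bases after each start site. The table held 24 promoters of 22 of the 39 genes. The hexamer TTTATG, a form of the core motif bound by caudal-type factors such as CDX2, was searched on both strands (as TTTATG or CATAAA, which do not overlap each other). It was present in 5 of the 24 promoters (20.8%), against 3893 of 32851 promoters of the same length (11.9%). The genes were Hoxa7, Hoxb8, Hoxd3, Hoxd4 and Hoxd11, and Hoxa7, Hoxb8 and Hoxd4 held it at 2 positions. The promoters below belong to 3 genes of clusters A and D that fell together when the D173A line was treated with 4-OHT, and to Hoxb8, which was higher in the C57BL/6 line than in the other 4 lines of its table. Capitals mark the hexamer. Its absence from a window says only that these letters are not in it.
Hoxa7 (chr6:52218524-52218823, minus strand): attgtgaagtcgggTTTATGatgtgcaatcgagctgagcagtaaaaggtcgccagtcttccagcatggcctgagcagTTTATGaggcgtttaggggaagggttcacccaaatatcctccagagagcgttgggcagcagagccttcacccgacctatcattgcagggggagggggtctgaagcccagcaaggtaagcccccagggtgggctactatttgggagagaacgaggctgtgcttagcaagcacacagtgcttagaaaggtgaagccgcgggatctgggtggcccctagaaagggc
Hoxa9 (chr6:52227321-52227620, minus strand): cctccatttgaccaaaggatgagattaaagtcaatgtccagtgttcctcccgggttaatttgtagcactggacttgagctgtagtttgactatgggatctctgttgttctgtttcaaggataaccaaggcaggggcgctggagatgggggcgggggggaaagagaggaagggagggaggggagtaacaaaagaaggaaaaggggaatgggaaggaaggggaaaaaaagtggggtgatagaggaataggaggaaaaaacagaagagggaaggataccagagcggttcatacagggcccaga
Hoxd8 (chr2:74704365-74704664, plus strand): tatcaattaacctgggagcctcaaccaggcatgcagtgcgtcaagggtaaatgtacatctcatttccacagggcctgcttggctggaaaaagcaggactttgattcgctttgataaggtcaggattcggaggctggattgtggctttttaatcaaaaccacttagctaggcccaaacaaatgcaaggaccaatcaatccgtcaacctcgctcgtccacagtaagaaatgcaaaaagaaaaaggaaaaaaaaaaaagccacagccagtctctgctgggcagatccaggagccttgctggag
Hoxb8 (chr11:96281655-96281954, plus strand): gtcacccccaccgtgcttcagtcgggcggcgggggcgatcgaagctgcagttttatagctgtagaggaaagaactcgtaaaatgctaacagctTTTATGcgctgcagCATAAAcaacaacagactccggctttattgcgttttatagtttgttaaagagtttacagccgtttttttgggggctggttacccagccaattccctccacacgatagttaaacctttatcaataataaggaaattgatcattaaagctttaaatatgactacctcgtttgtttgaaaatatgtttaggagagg
The Hox promoters held a median of 14.5 CpG dinucleotides, against 7 over all promoters of the table, but the count was 4 for Hoxa9 and 6 for Hoxd8.

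Total counts were 15485959 to 21449826 in the 5 lines, 18369427 to 20884794 in the time course, 18171558 to 19760132 in the IECs and 19183905 to 32909565 in the Wnt3-CM and D173A libraries. Levels are given as CPM, counts scaled to the library total. Values under 0.1 CPM rest on a few counts at these depths. The counts of the targeted genes did not check the deletions, since they cover all exons. Mean Cdk8 was 74.2 CPM in the VillinCreERT2 line, 82.7 in the CDK8 KO line and 65.8 in line 1003, and mean Cdk19 was 31.0 CPM in the C57BL/6 line and 25.5 in the Cdk19 KO line. Epcam, Cdh1 and Vil1, which define epithelium, were abundant in every group, and the summed level of 7 immune markers stayed under 1.5 CPM in the organoids. The counting is not stated to use strand. A part of the exonic bases is shared with an overlapping or antisense gene for Hoxa2 (15.0%), Hoxa3 (27.1%), Hoxa4 (16.0%), Hoxa7 (20.4%), Hoxa11 (35.0%), Hoxb2 (27.3%), Hoxb3 (52.9%), Hoxd3 (62.8%) and Hoxd4 (52.3%), whose values are uncertain to that extent, and for no other Hox gene was the share above 10.8%. In bulk RNA, fewer cells expressing a gene and less RNA per cell cannot be told apart.

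Of the 39 genes, 20 reached a mean of 1 CPM in at least 1 of the 19 groups. They were Hoxa2 to Hoxa5, Hoxa7, Hoxa9 and Hoxa10, Hoxb3 to Hoxb9, Hoxc4 to Hoxc6, and Hoxd3, Hoxd4 and Hoxd8. Among the remaining 19, Hoxa6, Hoxa11 and Hoxa13 peaked in organoids at means between 0.471 and 0.929 CPM. Hoxb13, Hoxd1 and Hoxd13 also peaked in organoids, but at no more than 0.0950 CPM. Hoxb1, Hoxb2, all 6 genes from Hoxc8 to Hoxc13, Hoxd9 and Hoxd11 were highest in the IECs of double-null mice, at means of no more than 0.495 CPM. Hoxd10 and Hoxd12 had no count in any of the 57 libraries. Hoxa3 was at or above 1 CPM in all groups except the IECs of VillinCreERT2 mice, and the genes that reached this level differed from line to line in all 4 clusters.

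**Figure D1:**
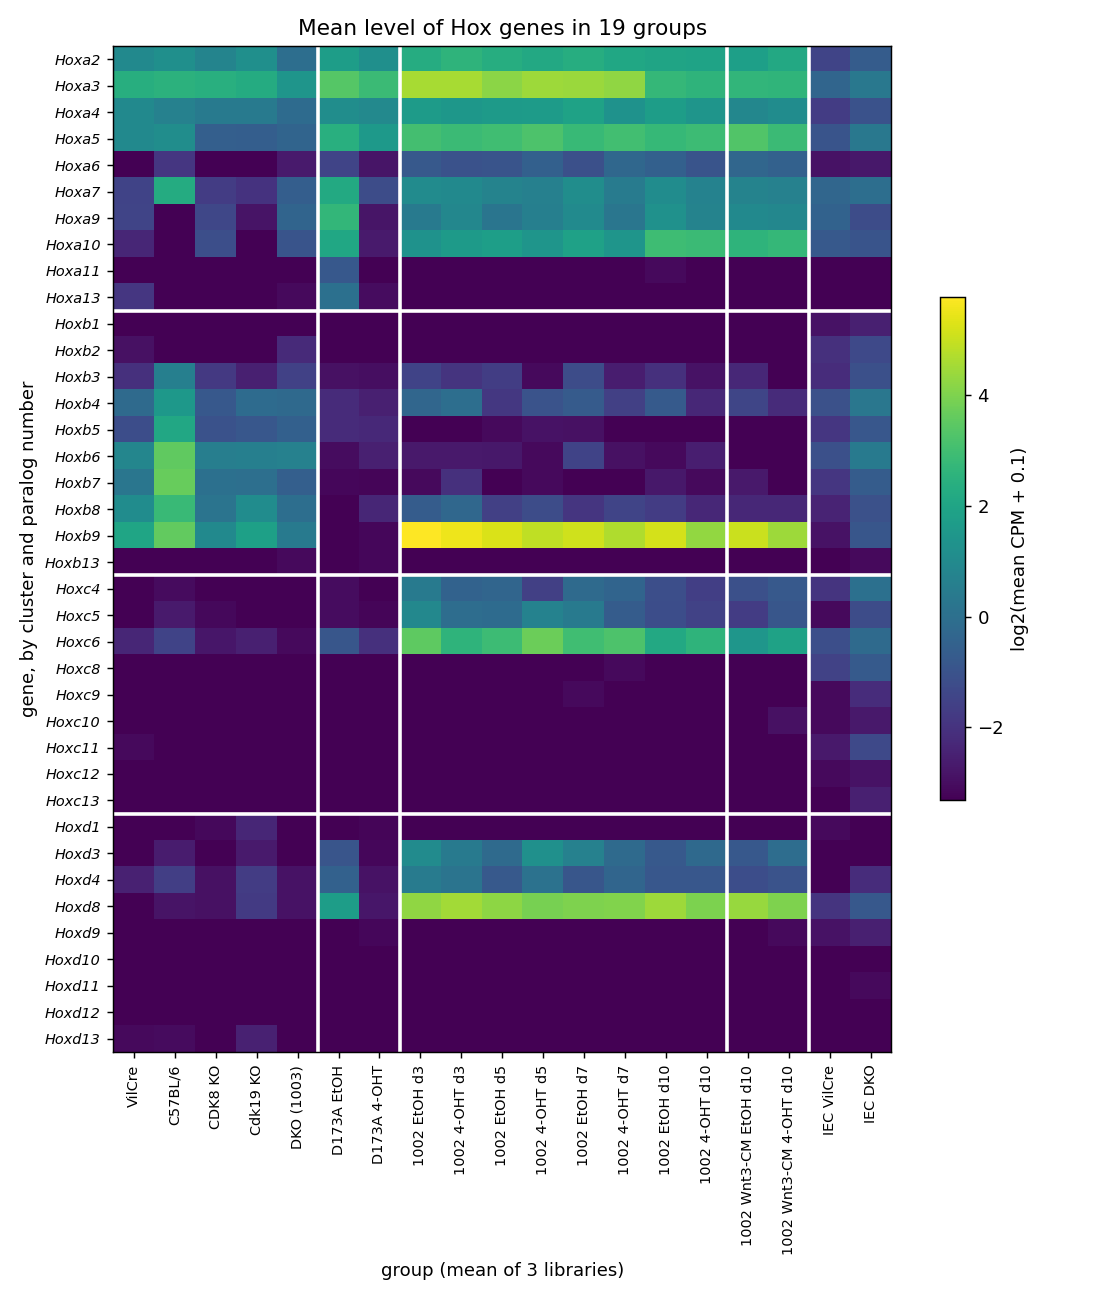
Heatmap of the mean level of the Hox genes reported here (rows, by cluster and paralog number) in each of the 19 groups (columns, 3 libraries each), in CPM on a log2 scale. Hoxa3 lies higher in every organoid group than in either IEC group, Hoxb3 to Hoxb8 are highest in the C57BL/6 line, and Hoxc6 and Hoxd8 are higher in every group of line 1002 than in any other group.

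The first question was how far organoid lines that were treated and collected alike differed in their Hox genes. Among the 5 lines at day 7 after 4-OHT, 12 of the 39 genes had enough counts to be tested, and all 12 were called different among lines by edgeR's quasi-likelihood test (Benjamini-Hochberg adjusted p below 0.05 and a fold change above 1.5). Of all 15125 genes tested, 42.5% were called. Hoxa7, Hoxb3, Hoxb5 and Hoxb7 reached the level of the low-count filter, 0.554 CPM in every library, in the C57BL/6 line only. The filter itself thus favoured the calls of these genes and the share called. The summed level of the 39 genes was 68.8 ± 1.83 CPM in the C57BL/6 line (SD, n = 3), against 22.1 ± 5.69 CPM in the VillinCreERT2 line, 18.9 ± 6.29 in the Cdk19 KO line, 16.0 ± 0.289 in the CDK8 KO line and 12.7 ± 6.39 in line 1003. The 4 lower lines overlapped each other in this sum.

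The C57BL/6 line stood apart through cluster B. Hoxb6, a mid-cluster gene of the trunk, was at 12.7, 10.9 and 10.9 CPM in its 3 libraries, and at 1.97, 2.43 and 0.734 CPM in the VillinCreERT2 line. It was at 1.45, 1.27 and 1.37 CPM in the CDK8 KO line, 1.38, 0.921 and 1.98 in the Cdk19 KO line, and 0.542, 2.75 and 1.22 in line 1003. Every C57BL/6 library lay above every library of the other 4 lines, while those 4 lines overlapped.

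Hoxb7, its neighbour, was at 12.5, 11.8 and 13.2 CPM in the C57BL/6 line and between 0.163 and 1.54 CPM in the 12 other libraries. Hoxb5 was at 4.26, 3.91 and 4.77 CPM against 0.0542 to 0.897 CPM. Both genes separated the C57BL/6 line without overlap. Hoxb8 was at 5.36, 9.13 and 6.67 CPM in the C57BL/6 line and reached 3.84 CPM in 1 library of the Cdk19 KO line. Hoxb9, the gene nearest the posterior end of the expressed stretch of this cluster, was at 12.5, 11.2 and 12.2 CPM in the C57BL/6 line. Its 3 libraries were at 4.89, 5.78 and 1.08 CPM in the VillinCreERT2 line, 2.18, 1.496 and 6.83 CPM in the Cdk19 KO line, 2.10, 1.79 and 1.80 CPM in the CDK8 KO line, and 0, 2.75 and 0.943 CPM in line 1003. The C57BL/6 libraries again lay highest, and the other 4 lines overlapped.

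Hoxa7 behaved like cluster B, at 3.94, 4.82 and 5.35 CPM in the C57BL/6 line and from 0.0573 to 0.897 CPM elsewhere in this set. The anterior genes of cluster A did not follow it. Hoxa2, which acts in the hindbrain and branchial arches, was at 2.20, 2.15 and 2.30 CPM in the C57BL/6 line and at 1.88, 1.96 and 1.86 CPM in the VillinCreERT2 line, and Hoxa3 was at 5.68, 5.27 and 5.75 CPM and at 6.02, 5.13 and 4.01 CPM.

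**Figure D2:**
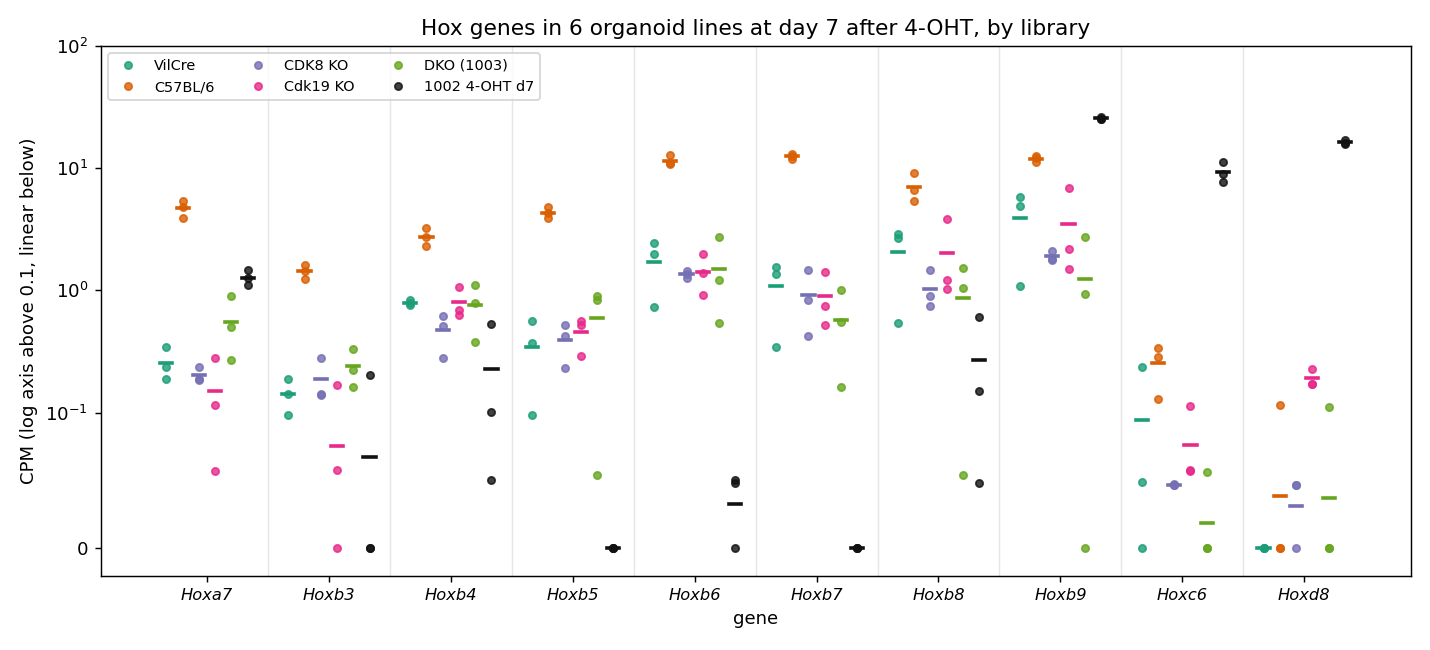
Level of Hoxa7, Hoxb3 to Hoxb9, Hoxc6 and Hoxd8 (CPM, log axis above 0.1 and linear below) in 6 lines at day 7 after 4-OHT, with a point for each library and a short line at the group mean. By mean, the C57BL/6 line is highest for Hoxa7 and Hoxb3 to Hoxb8, and line 1002 is highest for Hoxb9, Hoxc6 and Hoxd8.

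Between the control lines, C57BL/6 against VillinCreERT2, 8 of the 12 genes tested were called higher (15.5% of all genes were called higher, 26.4% in either direction) and none lower. The genes were Hoxa7 and Hoxb3 to Hoxb9. Of these 8, 5 (Hoxa7, Hoxb3, Hoxb5, Hoxb7 and Hoxb8) reached the level of the low-count filter, 0.554 CPM, in all 3 libraries of the C57BL/6 line and not of the VillinCreERT2 line, so the filter itself favoured the direction and share of these calls. The log2 fold change (± SE) was 4.15 ± 0.32 for Hoxa7 (adjusted p = 2.92e-11), 3.58 ± 0.40 for Hoxb5 (adjusted p = 1.12e-07), 3.48 ± 0.36 for Hoxb7 (adjusted p = 1.18e-06) and 2.70 ± 0.34 for Hoxb6 (adjusted p = 9.12e-06). The calls of Hoxb8 and Hoxb9 (adjusted p = 0.0215 and 0.0427) were lost with DESeq2. That of Hoxb8 was also lost without the second C57BL/6 library, and that of Hoxb9 in 8 settings in all, among them no filter, the replicate block and leaving out any of 5 of the 6 libraries, with adjusted p up to 0.197. Hoxa2, Hoxa3, Hoxa4 and Hoxa5 were not called, with log2 fold changes of 0.19, 0.11, -0.36 and 0.14. Neither line carries a targeted allele of Cdk8 or Cdk19.

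Transcripts that differ between the sexes also separated the lines. Xist, expressed from the inactive X chromosome of female cells, was at 332 to 428 CPM in the VillinCreERT2 line and 580 to 818 CPM in the C57BL/6 line, where Y-linked Ddx3y had no count. In the CDK8 KO line, the Cdk19 KO line and line 1003, Xist was at no more than 0.470 CPM and Ddx3y at 55.3 to 71.2 CPM. Line 1002 was like these 3 lines, and the D173A line like the control lines in both arms. In comparisons of the 3 mutant lines with a control line, sex, line and genotype therefore cannot be told apart.

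The Cdk19 KO line, compared with the C57BL/6 line, had 7 of 12 genes called lower (2.39% of all genes were called lower, 5.25% in either direction). They were Hoxa5, Hoxa7 and Hoxb3 to Hoxb7, of which 5 reached the filter level in the C57BL/6 line only, with Hoxa7 at a log2 fold change of -4.89 ± 0.37 (adjusted p = 1.07e-10), Hoxb3 at -4.11 ± 0.50 (adjusted p = 9.18e-07) and Hoxb7 at -3.79 ± 0.39 (adjusted p = 1.01e-05). This comparison and that between the control lines share the C57BL/6 libraries. Between the Cdk19 KO and VillinCreERT2 lines, Hoxb5 to Hoxb9 overlapped in their library values.

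In the CDK8 KO line, 2 of 12 genes were called against the VillinCreERT2 line, both lower (4.34% of all genes were called lower, 7.23% in either direction). Hoxa5, a gene with roles in gut and lung development, was at 0.606, 0.940 and 0.189 CPM against 1.504, 1.91 and 2.20 CPM, without overlap, a log2 fold change of -1.75 ± 0.31 (adjusted p = 0.000112). It reached the filter level of 0.554 CPM in every library in the VillinCreERT2 line only. Hoxa4 was the other gene (-0.66 ± 0.23, adjusted p = 0.0350), and its call was lost with DESeq2 and when any of several single libraries was left out. All 7 cluster B genes tested missed the threshold, with standard errors of 0.37 to 0.76.

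In line 1003, 4 of 12 genes were called against the VillinCreERT2 line, and all 4 were lower (7.95% of all genes were called lower, 19.4% in either direction). They were the contiguous anterior genes Hoxa2 (-1.15 ± 0.22, adjusted p = 8.46e-05), Hoxa3 (-0.99 ± 0.17, adjusted p = 3.42e-05), Hoxa4 (-1.22 ± 0.26, adjusted p = 0.000372) and Hoxa5 (-1.505 ± 0.31, adjusted p = 0.000250). Hoxa2 was at 0.813, 0.897 and 0.887 CPM in line 1003, the lowest of the 5 lines, and Hoxa3 at 1.95, 3.20 and 2.61 CPM was also lowest. Against the Cdk19 KO line and against the CDK8 KO line, 3 of 12 genes were called in each case (background 10.6% and 20.4%). Hoxa2 and Hoxa3 were lower and Hoxa7 was higher in both, but Hoxa7 reached the filter level of 0.554 CPM in every library in none of these lines. The Hoxa7 calls rested on the second library of line 1003, at 0.897 CPM against 0.271 and 0.499 CPM, and were lost without it (adjusted p = 0.109 and 0.160 by edgeR). That against the Cdk19 KO line was also lost without the first library of that line.

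In 3 of the 5 lines, replicate libraries differed several-fold in cluster B. In the VillinCreERT2 line the summed cluster B level was 12.7, 13.9 and 3.67 CPM in libraries 1, 2 and 3, whereas the summed cluster A level was 12.2, 11.6 and 11.7 CPM. Cluster B was at 1.36, 10.1 and 6.27 CPM in line 1003 and at 6.54, 5.12 and 15.9 CPM in the Cdk19 KO line, while in the C57BL/6 line it was at 51.3, 51.0 and 52.3 CPM. In the VillinCreERT2 line the third library was low for Hoxb5 to Hoxb9 at once. That library had the highest Hoxa9 of its line, 0.734 CPM against 0 and 0.0466 CPM, and the lowest summed level of 6 markers of the distal small intestine, 326 CPM against 485 and 664 CPM. It also had the highest summed level of 6 markers of the proximal small intestine, 697 CPM against 595 and 489 CPM. The part of regional composition in these differences was not tested. Without this library, 7 rather than 4 genes were called between line 1003 and the VillinCreERT2 line.

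Regional markers also differed among the lines. All 6 distal markers (Fabp6, Slc10a2, Slc51a, Slc51b, Fgf15 and Osr2) and 5 of 6 proximal markers (Gata4, Pdx1, Onecut2, Cybrd1, Slc40a1 and Lct) were called among the 5 lines (42.5% of all genes). Pdx1, a ParaHox gene of duodenum and pancreas, had mean levels of 9.07 CPM in the VillinCreERT2 line, 7.29 in line 1003, 2.52 in the CDK8 KO line, 0.969 in the Cdk19 KO line and 0.395 in the C57BL/6 line. Its log2 fold change in C57BL/6 against VillinCreERT2 was -4.52 ± 0.39 (adjusted p = 4.15e-08). Fabp6, the ileal bile acid binding protein, was at a mean of 205 CPM in the VillinCreERT2 line and 0.235 CPM in the C57BL/6 line. The C57BL/6 line, highest for cluster B, thus had the lowest mean of both markers. The sum of the 6 distal markers was lowest in the CDK8 KO line, at a mean of 156.5 CPM against 167.1 CPM in the C57BL/6 line. The sum of the 6 proximal markers was lowest in the C57BL/6 line, at 337 CPM. The part of these markers in the Hox differences was not tested.

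The double-null genotype was represented by lines 1002 and 1003, which were counted in separate tables and are set side by side without a test. At day 7 after 4-OHT, Hoxb9 was at 26.2, 25.2 and 25.2 CPM in line 1002 and at 0, 2.75 and 0.943 CPM in line 1003. Hoxd8 was at 16.0, 15.8 and 16.9 CPM in line 1002 and at 0, 0 and 0.111 CPM in line 1003, where only 2 counts were seen in all. Hoxc6 was at 11.2, 7.65 and 8.95 CPM and at 0, 0.0561 and 0 CPM. The lines did not overlap for these genes. The ratio of line 1002 to line 1003 was 441 for Hoxd8 and 502 for Hoxc6, from 2 counts and 1 count in line 1003, with exact 95% intervals of 122 to 3647 and 89.7 to 19863 that cover counting error only. It was 21.0 for Hoxb9, 12.1 for Hoxa5, 7.43 for Hoxa3 and 6.397 for Hoxa10. Hoxb3 to Hoxb8 went the other way. Hoxb5 and Hoxb7 had no count in these libraries of line 1002, Hoxb6 was at 0, 0.0481 and 0.0503 CPM there against 0.542, 2.75 and 1.22 CPM in line 1003, and these 3 genes did not overlap between the lines. Hoxb3, Hoxb4 and Hoxb8 overlapped, with ratios of 0.276, 0.306 and 0.305. Among the 7 lines at day 7 after 4-OHT, line 1002 had the highest mean of Hoxa2, Hoxa3, Hoxa4 and Hoxa5, of Hoxa9 and Hoxa10, and of Hoxb9, Hoxc6 and Hoxd8, and the C57BL/6 line had the highest mean of Hoxa7.

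The active stretch of each cluster differed between the lines. At 1 CPM or more, the VillinCreERT2 line had Hoxa2 to Hoxa5 and Hoxb6 to Hoxb9, and the C57BL/6 line had these together with Hoxa7 and Hoxb3 to Hoxb5. The CDK8 KO and Cdk19 KO lines had Hoxa2 to Hoxa4 with Hoxb6, Hoxb8 and Hoxb9, and line 1003 had Hoxa3, Hoxb6 and Hoxb9. No gene of cluster C or D reached 1 CPM in any of these 5 lines. Line 1002 had between 10 and 14 such genes across its groups, among them Hoxa9, Hoxa10, Hoxb9, Hoxc6 and Hoxd8, but none of Hoxb3 to Hoxb8. The EtOH arm of the D173A line had Hoxa2 to Hoxa5, Hoxa7, Hoxa9 and Hoxa10 with Hoxd8, and no gene of cluster B. Per kilobase of exon, the highest mean in line 1002 was that of Hoxb9, at 21.1 CPM per kb in the EtOH arm at day 3. Within that group it was followed by Hoxd8 at 6.94, Hoxc6 at 4.65 and Hoxa5 at 4.36.

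The next question was whether the arms of 1 line differed as the lines did. In line 1002 the arms stayed close. Over the genes that reached 1 CPM in either arm, the median absolute log2 ratio of the arm means (0.1 CPM added to each) was 0.266 at day 3, 0.349 at day 5, 0.439 at day 7, 0.341 at day 10 and 0.289 in Wnt3-CM, and no gene differed by more than 4-fold. Between the C57BL/6 line and each of the other 4 lines of its table, 5 to 8 of 12 genes differed by more than 4-fold. In the other 6 pairs of the 5 lines no gene did, and their medians ran from 0.234 to 1.081, so that the arms of line 1002 lay within the range of these pairs.

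Hoxb9 was the gene of line 1002 with the steadiest difference between arms. At day 3 it was at 52.9, 56.5 and 53.2 CPM in EtOH and at 39.8, 49.2 and 50.2 CPM after 4-OHT. At day 7 it was at 35.9, 35.9 and 32.3 CPM in EtOH and at 26.2, 25.2 and 25.2 CPM after 4-OHT, and at day 10 it was at 34.6, 35.4 and 38.0 CPM and at 19.2, 20.7 and 17.9 CPM. The 4-OHT libraries lay below the EtOH libraries on each of these days without overlap. Its log2 fold change was -0.34 ± 0.09 at day 3 (adjusted p = 0.00270), -0.43 at day 5, -0.38 at day 7 and -0.84 ± 0.09 at day 10 (adjusted p = 1.65e-08), and only day 10 passed the fold cutoff. The change at day 10 minus that at day 3 was -0.51 ± 0.13 (adjusted p = 0.00158), a fold change below 1.5. That difference between days was called for 3 of 18 genes (26.3% of all genes), Hoxb4, Hoxc6 and Hoxd3.

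The other calls in line 1002 were few, and Hoxc6 and Hoxd3 were called in opposite directions on different days. At day 3, 3 of 18 genes tested were called (5.95% of all genes were called lower, 12.4% in either direction), Hoxc4, Hoxc5 and Hoxc6, all lower, and only Hoxc6 remained called without the third EtOH library. The summed level of 12 mesenchyme markers was 11.05 to 13.4 CPM in EtOH and 2.58 to 4.85 CPM after 4-OHT on that day. Most of it was Pdgfrb, at means of 11.7 and 3.02 CPM, the 1 marker called of 3 tested (-2.07 ± 0.18, adjusted p = 3.75e-10), while Col1a2, Col3a1, Dcn and Lum had no count in either arm and the mean of Col1a1 was 0.0362 CPM in EtOH and 0.278 CPM after 4-OHT. Their part in the Hox difference was not tested. Hoxc6 was at 9.81, 10.2 and 13.6 CPM in EtOH and at 5.37, 6.71 and 5.85 CPM after 4-OHT, a log2 fold change of -1.02 ± 0.14 (adjusted p = 1.76e-06). At day 5, 4 of 18 genes were called (13.2% of all genes). Hoxc6 was then higher after 4-OHT, at 13.1, 12.5 and 13.3 CPM against 7.78, 7.85 and 6.75 CPM (0.75 ± 0.14, adjusted p = 9.33e-05). Hoxd3 was also higher (1.48 ± 0.32, adjusted p = 0.000613), at 2.01, 2.05 and 2.77 CPM against 0.825, 0.431 and 1.12 CPM. Hoxd4 was higher and Hoxc4 lower, but the Hoxd4 call was lost with DESeq2 and with only the 6 libraries compared, and the Hoxc4 call when 1 of 3 single libraries was left out. At day 5, Hoxd3 and Hoxd4 reached the filter level (0.519 CPM in every library) in the 4-OHT arm only, and Hoxc4 in neither arm. At day 3, Hoxc4 reached it in EtOH only. The groups did not overlap for Hoxc6 on either day.

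At day 7, 4 of 18 genes were called (18.3% of all genes), Hoxa6 higher and Hoxa9, Hoxc5 and Hoxd3 lower, at adjusted p from 0.0303 to 0.0437. None of these was called with DESeq2 or when only the 6 libraries compared were fitted. Hoxc5 was at 0.870, 1.96 and 0.753 CPM in EtOH, where the mesenchyme markers summed to 4.84, 42.9 and 5.37 CPM. Its call was lost without the second of these libraries. It was also lost without the second or the third 4-OHT library, where the markers summed to 8.33 and 7.70 CPM. The part of these markers was not tested. At day 10, 2 of 18 were called (6.92% of all genes were called lower, 15.8% in either direction), Hoxb9 and Hoxb4, both lower. Hoxb4 (-2.13 ± 0.75, adjusted p = 0.0222) was at 0.742, 0.366 and 0.366 CPM in EtOH and at 0.103, 0.157 and 0.0522 CPM after 4-OHT, without overlap, and its call was lost when 1 of 3 single libraries was left out. Hoxb4 reached the filter level in neither arm at day 10. At day 7, Hoxc5 reached it in EtOH only and Hoxa6 in neither arm.

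Culture time was examined in the EtOH arm of the same line. In EtOH, from day 3 to day 10, 9 of 18 genes were called (38.4% of all genes), 2 higher and 7 lower. Hoxa3 fell from 24.4, 22.7 and 24.4 CPM to 6.63, 6.44 and 6.75 CPM, a log2 fold change of -1.87 ± 0.13 (adjusted p = 9.29e-13). Hoxa10, a posterior gene of the same cluster, rose from 2.16, 2.18 and 2.82 CPM to 7.37, 7.59 and 8.001 CPM (1.66 ± 0.25, adjusted p = 1.03e-06). Neither gene overlapped between the days, and the 4-OHT arm at day 10 was close to the EtOH arm, with Hoxa3 at 6.69, 5.43 and 5.80 CPM and Hoxa10 at 7.05, 7.36 and 7.05 CPM.

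Hoxa9 was the other gene that rose (0.89 ± 0.30, adjusted p = 0.0112), from 1.08, 1.14 and 1.47 CPM to 2.47, 2.35 and 2.09 CPM. The genes that fell with Hoxa3 were Hoxb9 (-0.61 ± 0.09), Hoxc4 (-1.80 ± 0.46), Hoxc5 (-2.40 ± 0.43), Hoxc6 (-1.39 ± 0.15), Hoxd3 (-2.06 ± 0.36) and Hoxd4 (-1.46 ± 0.36). Of the 9 called genes, 4 (Hoxc4, Hoxc5, Hoxd3 and Hoxd4) reached the filter level at day 3 only. Hoxc5 was at 0.970, 1.91 and 2.55 CPM at day 3 and at 0.494, 0.262 and 0.261 CPM at day 10. Hoxd8 did not pass the threshold (0.14 ± 0.11), at 19.5, 19.1 and 18.5 CPM and 17.7, 21.8 and 24.4 CPM. From day 3 to day 7, a comparison added after the day 10 values were seen, 3 of 18 genes were called (10.9% of all genes were called lower, 16.0% in either direction), Hoxb8, Hoxb9 and Hoxd4, all lower. Hoxa3 had changed by -0.12 ± 0.12 at day 7 (adjusted p = 0.453). The call of Hoxb9 from day 3 to day 10 was lost without the first day 10 library, through the fold cutoff, and that of Hoxb8 at day 7 was lost with DESeq2. Other lists moved over the same days. The mean sum of 6 stomach markers, of which no more than 2 reached 1 CPM, went from 2.40 CPM at day 3 to 17.3 CPM at day 10. From day 3 to day 10 the mesenchyme markers went from a mean sum of 12.5 to 4.56 CPM, with 2 of 3 tested lower, Pdgfrb among them (-1.48 ± 0.17, adjusted p = 1.62e-08), and Col1a2, Dcn and Lum without a count on either day. Of the other lists, 5 of 7 Hox cofactors tested were called, all lower, 2 of 6 distal markers, both lower, 10 of 20 Polycomb and trithorax genes, 2 higher and 8 lower, and 5 of 6 retinoic acid genes, 2 higher and 3 lower, against 38.4% of all genes called in either direction. Their part in the Hox differences was not tested. The labels give no batch for the days, so culture day and any batch tied to it cannot be told apart.

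**Figure D3:**
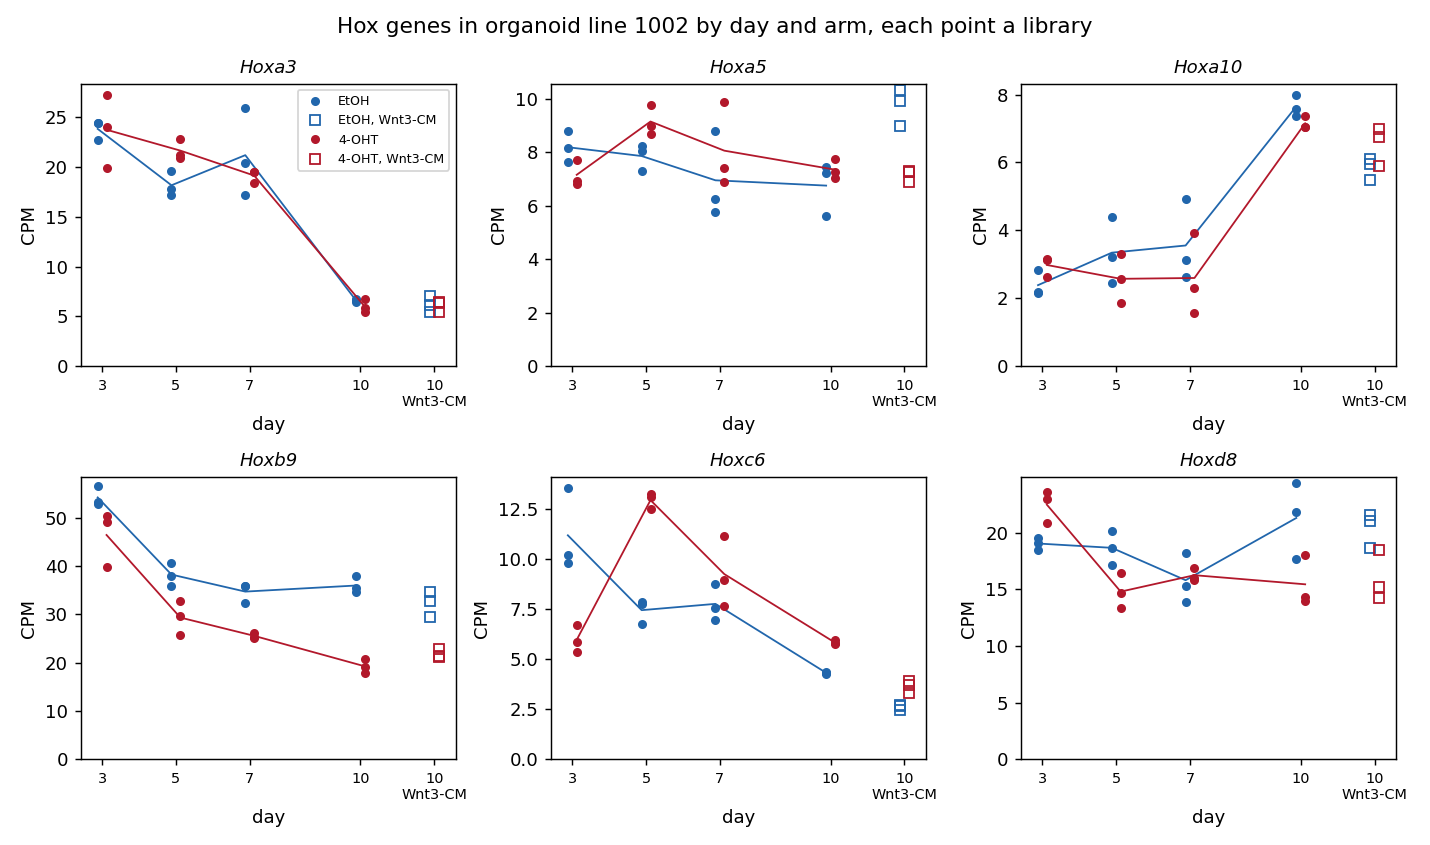
Level of Hoxa3, Hoxa5, Hoxa10, Hoxb9, Hoxc6 and Hoxd8 (CPM) in each library of line 1002 by day, in EtOH and after 4-OHT, joined by lines through the means, with the Wnt3-CM libraries of day 10 beside them. Hoxa3 drops and Hoxa10 climbs between days 7 and 10 in both arms, and Hoxb9 lies lower after 4-OHT on every day.

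In Wnt3-CM, 1 of 12 genes tested was called between the arms at day 10 (7.42% of all genes were called lower, 16.9% in either direction). It was Hoxb9, at 29.5, 34.6 and 32.8 CPM in EtOH and at 21.1, 21.3 and 22.8 CPM after 4-OHT, without overlap (-0.61 ± 0.08, adjusted p = 3.38e-06). Without the second library of either arm its fold change fell below 1.5. Hoxa5 was at 10.3, 9.91 and 8.97 CPM in EtOH and at 7.27, 6.89 and 7.30 CPM after 4-OHT (-0.48 ± 0.12, adjusted p = 0.00262), again without overlap but under the fold cutoff. Hoxa3 was at 5.45 to 7.02 CPM over the 6 libraries, against 5.43 to 6.75 CPM at day 10 in standard medium. Hoxa10 was at 5.47 to 6.99 CPM, below the 7.05 to 8.001 CPM of standard medium, a difference between tables that was not tested. The 4-OHT effect was compared between the media in a joint fit of the 12 day 10 libraries, added after the values were seen. Of 14 genes tested, 1 was called (6.21% of all genes were called lower, 13.3% in either direction), Hoxa5, with a difference of log2 fold changes of -0.66 ± 0.18 (adjusted p = 0.0084).

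The D173A line differed from line 1002 in what the arms showed. Of 13 genes tested at day 7, 9 were called, all lower after 4-OHT (6.26% of all genes were called lower, 12.3% in either direction). Of the 9 called genes, 8 reached the level of the low-count filter (0.341 CPM in all 3 libraries) in the EtOH arm only, so the filter itself favoured the direction and share of these calls. The summed Hox level was 43.2 ± 0.523 CPM in EtOH and 15.8 ± 1.07 CPM after 4-OHT (SD, n = 3). In cluster A the genes at the anterior and posterior ends differed in the size of the change.

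At the posterior end, Hoxa9 was at 7.23, 5.87 and 5.93 CPM in EtOH and at 0.101, 0.0304 and 0 CPM after 4-OHT. Hoxa10 was at 4.16, 4.28 and 3.92 CPM and at 0.0675, 0.0608 and 0.0396 CPM. Hoxa13, whose product patterns the hindgut and limb, was at 0.741, 1.21 and 0.838 CPM and at 0.0675, 0 and 0 CPM. Every 4-OHT library lay far below every EtOH library for these genes.

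The ratio of summed levels, EtOH over 4-OHT, was 139 for Hoxa9 (exact 95% interval 54.0 to 512, counting error only), 72.3 for Hoxa10 (30.7 to 224) and 40.8 for Hoxa13 (10.9 to 343, from 2 counts after 4-OHT). Hoxa11 had 41 counts in EtOH and none after 4-OHT, so it was at least 13.8-fold higher in EtOH against a floor of 3 counts over the group. The log2 fold changes were -6.91 ± 0.39 for Hoxa9 (adjusted p = 1.56e-06), -5.99 ± 0.29 for Hoxa10 (adjusted p = 6.66e-07) and -5.02 ± 0.67 for Hoxa13 (adjusted p = 0.000415).

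In the middle of the cluster, Hoxa7 was at 3.85, 4.25 and 5.46 CPM in EtOH and at 0.337, 0.213 and 0.436 CPM after 4-OHT (-3.70 ± 0.27, adjusted p = 8.70e-06). Hoxa5 was at 6.25, 4.97 and 4.42 CPM and at 3.10, 2.13 and 3.52 CPM (-0.76 ± 0.22, adjusted p = 0.0262), a call that was lost when 1 of 3 single libraries was left out. At the anterior end, Hoxa4 was at 2.89, 1.66 and 1.71 CPM and at 2.29, 1.61 and 1.66 CPM, with overlap (-0.08 ± 0.27, adjusted p = 0.854). Hoxa3 was at 9.53, 10.4 and 10.8 CPM and at 6.68, 7.75 and 7.33 CPM, without overlap (-0.41 ± 0.12, adjusted p = 0.0254) but under the fold cutoff, and Hoxa2 was not called (-0.49 ± 0.20). The ratio of summed levels was 1.51 for Hoxa2, 1.41 for Hoxa3, 1.12 for Hoxa4, 1.82 for Hoxa5, 5.79 for Hoxa6 (from 4 counts after 4-OHT) and 14.2 for Hoxa7. Hoxa2 to Hoxa5 thus lay under 2-fold and Hoxa7 to Hoxa13 over 10-fold, while within these stretches the ratios did not rise in order of position.

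Cluster D moved in the same direction, with genes at both ends of its expressed stretch. Hoxd8 was at 2.54, 3.38 and 3.72 CPM in EtOH and at 0.0675, 0.0304 and 0.0396 CPM after 4-OHT (-5.92 ± 0.36, adjusted p = 2.57e-06). Hoxd3 fell from 0.494, 0.414 and 0.369 CPM to 0.0337, 0 and 0 CPM (-4.70 ± 0.78, adjusted p = 0.00156), and Hoxd4 from 0.706, 0.483 and 0.637 CPM to 0, 0.0304 and 0.0792 CPM (-3.91 ± 0.63, adjusted p = 0.00136). Hoxd3 and Hoxd4 overlap each other on the same strand, so their reads cannot be fully separated. The arms did not overlap for any of the 3 genes. Cluster B was near 0 in both arms, with summed levels of 0.104 to 0.459 CPM in EtOH and 0.152 to 0.634 CPM after 4-OHT.

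**Figure D4:**
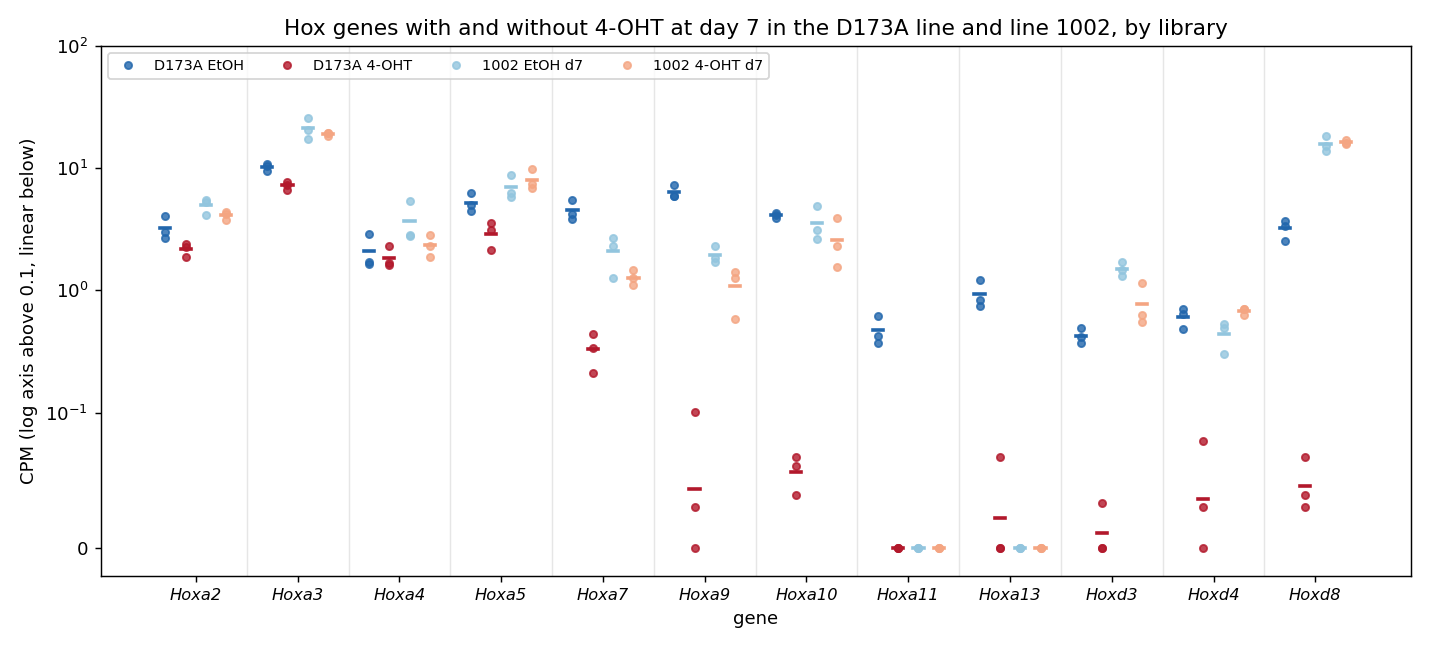
Level of 12 Hox genes (CPM, log axis above 0.1 and linear below) at day 7 in EtOH and after 4-OHT, for the D173A line and for line 1002, with a point for each library and a short line at the group mean. In the D173A line the arms do not overlap for Hoxa7, Hoxa9, Hoxa10 and Hoxd8, while in line 1002 they overlap for Hoxa7, Hoxa10 and Hoxd8 and not for Hoxa9.

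The difference between the lines was tested as an interaction in a joint fit of the 12 day 7 libraries, whose counts come from separate tables, added after the D173A values were seen. Of 18 genes tested, 9 were called, all with a lower response in the D173A line (6.25% of all genes were called lower, 11.1% in either direction). Hoxa6 and Hoxc6 were among them, though both had too few counts to be tested within the D173A line. Hoxd3 and Hoxd4, also among them, rested on 1 and 3 counts in that line after 4-OHT. The filter admits a gene through any group where it is high, which can favour the direction and share of such calls. The difference of log2 fold changes was -6.10 ± 0.60 for Hoxa9 (adjusted p = 6.81e-06), -6.01 ± 0.35 for Hoxd8 (adjusted p = 1.73e-08), -5.58 ± 0.57 for Hoxa10 (adjusted p = 1.03e-05) and -3.05 ± 0.44 for Hoxa7 (adjusted p = 0.000233). In line 1002 at day 7, Hoxa9 was at 1.69, 2.30 and 1.86 CPM in EtOH and 1.40, 0.578 and 1.26 CPM after 4-OHT, and Hoxd8 was at 13.9, 15.3 and 18.2 CPM and 16.0, 15.8 and 16.9 CPM. Across the 6 within-line comparisons of arms, the D173A line alone had genes over 4-fold apart, 4 of the 8 that reached 1 CPM, with a median absolute log2 ratio of 2.12, against medians of 0.234 to 2.51 between pairs of the 5 lines.

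Other genes of the D173A line moved with the Hox genes. Among the distal markers, Fgf15, an ileal hormone, was lower after 4-OHT (-3.64 ± 0.14, adjusted p = 1.44e-07), with a mean of 1.32 against 17.6 CPM, whereas Slc10a2 (1.22 ± 0.23) and Slc51b (1.00 ± 0.20) were higher, and 2 of the 5 tested were not called. Among 6 proximal markers, Lct, the lactase gene of villus enterocytes, was higher (2.76 ± 0.39, adjusted p = 0.00824) and the other 5 were not called. The summed proximal level was 366 to 388 CPM in EtOH and 639 to 664 CPM after 4-OHT. Aqp8, a colon marker, was higher (3.75 ± 0.26), while Car1 had almost no counts. The sum of 6 stomach markers, of which 1 reached 1 CPM in each arm, was 4.80 to 7.56 CPM in EtOH and 15.9 to 21.9 CPM after 4-OHT. Their part in the Hox result was not tested.

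In the IECs, taken from mice, the summed Hox level was 2.92, 10.2 and 5.22 CPM in VillinCreERT2 mice and 20.4, 9.77 and 11.1 CPM in double-null mice, with overlap. No gene reached a mean of 1 CPM in the former, and Hoxa3, Hoxa5, Hoxb4 and Hoxb6 did in the latter. Hoxb6 was at 0.469, 0.420 and 0.207 CPM against 1.93, 0.768 and 1.06 CPM, and Hoxb4 at 0.313, 0.472 and 0.362 CPM against 1.82, 0.716 and 0.810 CPM. The double-null libraries were higher without overlap for both genes, but neither was called by edgeR (1.63 ± 0.49, adjusted p = 0.151, and 1.40 ± 0.47, adjusted p = 0.177). Of 8 genes tested 0 were called with edgeR and 0 with DESeq2 (1.5% of all genes were called with edgeR), and 2 had an unadjusted p below 0.05.

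Xist was at 129 to 163 CPM in the VillinCreERT2 mice, with no count of Ddx3y, and at 1.13 to 121 CPM in the double-null mice, with Ddx3y at 0.101 to 30.7 CPM, so the sexes were not matched.

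Markers of mesenchyme, in which Hox genes are strongly expressed in the gut, differed between these libraries. The summed level of 12 mesenchyme markers was 6.93, 782 and 41.4 CPM in VillinCreERT2 mice and 894, 545 and 423 CPM in double-null mice. The summed level of 7 immune markers was 72.2, 288 and 82.8 CPM and 931, 588 and 537 CPM. The library with the least mesenchyme RNA had counts for 17 Hox genes and the one with the most had counts for 31. Hoxc8 to Hoxc13, which had almost no counts in organoids, were seen in the IECs of double-null mice, and Hoxc8 to Hoxc12 also in those of VillinCreERT2 mice. Hoxc8 was at 0, 0.734 and 0 CPM in VillinCreERT2 mice, its only counts there being in the library with the most mesenchyme RNA of that group, and at 0.770, 0.461 and 0.253 CPM in double-null mice, with overlap. The part of mesenchyme in the IEC Hox levels was not tested. In organoids the 12 markers summed to no more than 13.4 CPM, except for 1 EtOH library of line 1002 at day 7 with 42.9 CPM.

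**Figure D5:**
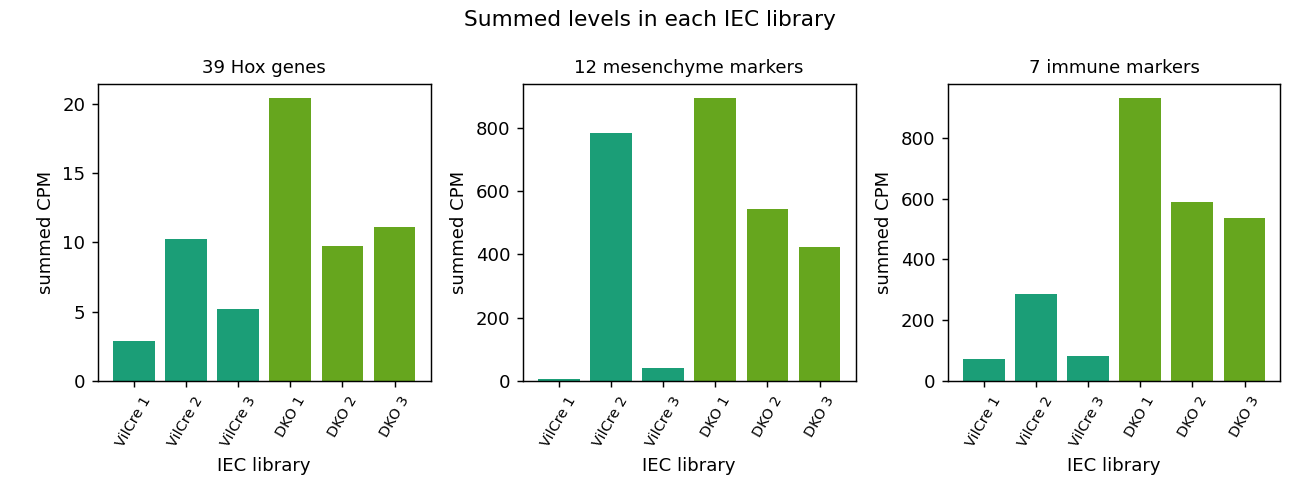
Summed level (CPM, linear axes from 0) of the 39 Hox genes, 12 mesenchyme markers and 7 immune markers in each of the 6 IEC libraries. The first VillinCreERT2 library is lowest for all 3 sums and the first double-null library is highest for all 3.

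Genes that work with the Hox proteins were followed by lists. Of 9 cofactors of the PBX, MEIS and PKNOX families, which bind DNA together with HOX proteins, 7 were tested among the 5 lines and 6 were called (42.5% of all genes). Of the 7 tested in the D173A line, 2 were called (12.3% of all genes), among them Pbx4, which was lower after 4-OHT (-0.60 ± 0.13, adjusted p = 0.00571).

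Of the caudal and ParaHox genes, Cdx1 and Cdx2, which set intestinal identity and act upstream of Hox genes in the embryo, were expressed in all groups. Cdx2 was not called in the D173A line (-0.02 ± 0.06, adjusted p = 0.827), with means of 207 CPM in EtOH and 191 CPM after 4-OHT, and Cdx1 was not called there either (-0.12 ± 0.11, adjusted p = 0.428). Cdx1 was lower in line 1003 than in the VillinCreERT2 line (-1.00 ± 0.07, adjusted p = 3.12e-12). Of 20 Polycomb and trithorax genes, whose products keep Hox genes silent or active, all 20 were tested in the D173A line. Of these, 1 was called (12.3% of all genes), so the count was not above that share. It was Cbx7, which was lower after 4-OHT (-0.91 ± 0.09). Among the 5 lines 6 of the 20 were called (42.5% of all genes).

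Among 11 genes of retinoic acid metabolism and response, a pathway that induces Hox genes in the embryo, 6 were tested in the D173A line and 4 were called (12.3% of all genes). Rarg (-1.68 ± 0.18) and Cyp26b1 (-1.42 ± 0.39), which degrades retinoic acid, were lower, and Rarb (1.38 ± 0.36) and Rdh10 (0.65 ± 0.09) were higher. Of the other transcripts of the Hox clusters, 3 were tested in the D173A line, Hotairm1, Hoxaas2 and Hoxaas3, and none was called. Hoxa11os, antisense to Hoxa11, had a mean of 0.365 CPM in EtOH and Haglr, a long noncoding RNA of cluster D, 0.311 CPM, and both had no counts after 4-OHT. In line 1002 in EtOH, Haglr fell from day 3 to day 10 (-1.91 ± 0.39, adjusted p = 8e-05), as did Hoxaas2 (-1.27 ± 0.33, adjusted p = 0.00132).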

How the data were processed

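RNA was sequenced as polyA libraries, 100 bp paired end. The deposited values are raw counts per gene in 4 tables, and the submitters' processing notes name STAR 2.5.2, Subread 1.6.3 with featureCounts, and mm10, while strandedness and the annotation release are not given in the sources used here. Of 54752 identifiers, 54723 matched GENCODE vM21, used for positions. Columns were tied to the groups through the labels, and 6 IEC columns whose letters no label explains were not used, so the planned IEC comparison of D173A genotypes was not run.

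Each table was fitted apart with edgeR 4.0.16 (R 4.3.3; quasi-likelihood, robust, filterByExpr by group, TMM), with Benjamini-Hochberg adjustment over all genes tested. A gene was called at an adjusted p below 0.05 and a fold change above 1.5. The filter admits a gene through the group where it is high, and in comparisons of 2 groups between 0 and 8 called Hox genes reached its level in 1 group only. The standard error was the log2 fold change divided by the square root of F. A fold against a group with no count used a floor of 3 counts over the group, and intervals are exact at 95% and cover counting error only. The scripts were tested on simulated data. The alternatives were DESeq2 1.42.0, its size factors in edgeR, no filter on low counts, only the 6 libraries compared, the replicate number as a block, and leaving out each library. Levels and figures used Python 3.11.15, pandas 2.3.3, scipy 1.17.1 and matplotlib 3.10.9.

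The genes, marker lists and tests were chosen with earlier results of these data known. Values in every library were planned for at most 15 genes that reached 1 CPM, were called among lines or between arms, and had the largest range of group means. Hoxa4, Hoxa13, Hoxb4, Hoxc8 and Hoxd4 were given in addition, chosen after their values were seen. The comparisons of EtOH day 7 with day 3, of the D173A line with line 1002 and of the media were added after the data were seen. Results for some genes, 1 of the 39 among them, are not reported here.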

Additional observations from a re-analysis of the deposited data

Results flagged for a closer look

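The 4-OHT effect differed between days 10 and 3 of line 1002, by the interaction test in edgeR, for 3 of 18 genes tested (26.3% of all genes). The difference of log2 fold changes, day 10 minus day 3, was 1.51 for Hoxc6, 1.503 for Hoxd3 and -2.33 for Hoxb4. The Hoxb4 difference was lost with DESeq2 and without any of 6 single libraries, and the Hoxd3 difference without 1 of 2 single libraries.

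The 4-OHT effect at day 7 differed between the D173A line and line 1002 for 9 of 18 genes tested (11.1% of all genes). The difference, D173A line minus line 1002, was -6.10 for Hoxa9, -6.01 for Hoxd8, -5.58 for Hoxa10, -4.55 for Hoxd4, -3.76 for Hoxd3, -3.37 for Hoxa6, -3.05 for Hoxa7, -1.87 for Hoxc6 and -1.03 for Hoxa5. Hoxa6 and Hoxc6 had too few counts to be tested within the D173A line, and the low-count filter can favour the direction and share of such calls. The lines were counted in separate tables and differed in Xist and Ddx3y, so line, sex, allele and table cannot be told apart.

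The 4-OHT effect at day 10 differed between Wnt3-CM and standard medium for 1 of 14 genes tested, Hoxa5, by -0.66. The share of all genes called was 13.3%, so the count of Hox genes was not above it.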

How the results depend on the processing

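Of the 87 called results for single Hox genes, none changed direction under any alternative that gave an adjusted p. Results that were not called were not followed in this way. Counts of called Hox genes moved by more than 1.5 times as follows, and the cause was not tested beyond the fewer libraries or genes that each alternative uses. Without a filter on low counts, 21 rather than 12 genes were called among the 5 lines, 5 rather than 3 between line 1003 and the Cdk19 KO line, and 2 rather than 0 in the IECs. With DESeq2, 1 rather than 2 were called in the CDK8 KO line and 0 rather than 4 between arms at day 7. With only the 6 libraries compared, 0 were called at day 7 and 1 rather than 2 at day 10. Leaving out 1 library at a time gave 1 to 2 calls in the CDK8 KO line, 4 to 7 for line 1003 against VillinCreERT2 (7 without the third VillinCreERT2 library) and 2 to 5 against the CDK8 KO line (5 without the first library of line 1003). It gave 1 to 4 at day 3, 2 to 4 at day 5, 2 to 4 at day 7, 1 to 2 at day 10 and 1 to 4 for the day 10 minus day 3 effect (1 without the first 4-OHT library of day 10). It gave 0 to 1 in Wnt3-CM (0 without the second library of either arm), 0 to 1 in the IECs (1 without the second VillinCreERT2 library) and 1 to 3 for EtOH day 7 against day 3. For the D173A line it gave 8 to 10 calls, and DESeq2 gave 9.

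The deviations of same-numbered libraries from their group means had correlations from -0.4102 to 0.3525. No comparison had more than 2 pairs above 0.1. In some comparisons every pair was positive, among them 4-OHT against EtOH at day 10 (0.0951 to 0.3525) and at day 7 (0.0171 to 0.2314). The replicate block served only as an alternative. With the replicate block, 7 rather than 8 genes were called between the control lines (Hoxb9 was lost), 5 rather than 4 for line 1003 against VillinCreERT2, 10 rather than 9 for EtOH day 10 against day 3 and 4 rather than 3 for EtOH day 7 against day 3. The D173A and Wnt3-CM columns carry no replicate numbers tied to labels, so no block was fitted there. Depth limits genes under 0.1 CPM, which rest on a few counts.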
